A study of Mus musculus with 24 samples.

Results

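The 9 genes described here encode the enzymes of the pentose phosphate pathway (G6pdx, Pgls, Pgd, Rpia, Rpe, Tkt and Taldo1) and 2 cytosolic enzymes that make NADPH outside it (Me1 and Idh1). They were chosen by symbol among the 35770 genes named in the deposited table, and all 9 were found and passed the filter on low values (TPM above 1 in at least 3 libraries), which left 13661 genes for testing. Their RNA was measured in bone marrow-derived macrophages (BMDMs), grown from C57BL/6 mouse marrow with the growth factor M-CSF, that were kept for 24 h in 1 of 4 media with 100 nM CDDO-Me or vehicle, 3 libraries in each of 8 groups. CDDO-Me is a synthetic triterpenoid known for binding KEAP1 and so activating NRF2. The control medium, called media, came from a plate without cancer cells, and each conditioned medium (CM) was collected after 48 h from LL2 Lewis lung carcinoma cells that were wild type (WT CM), KEAP1 knockout (KEAP1 KO CM) or NRF2 knockout (NRF2 KO CM), and made up 75% of the culture medium. The knockouts were made by CRISPR in the cancer cells, and the macrophages were not edited. The labels do not say whether a knockout line was 1 clone. The groups are named by medium and treatment, as in WT CM/vehicle. The labels call the 3 samples of a group independent but do not say whether they came from separate mice, so the p-values below measure the spread between these samples.

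The pentose phosphate pathway takes glucose 6-phosphate from glycolysis. Its oxidative branch reduces NADP+ to NADPH and releases a pentose phosphate, and its non-oxidative branch interconverts sugar phosphates so that pentoses can return to glycolysis or serve nucleotide synthesis. NADPH feeds the enzymes that reduce glutathione and thioredoxin, the synthesis of fatty acids and sterols, and, in macrophages, the oxidase that makes superoxide. NRF2 is known to drive several of these genes together with antioxidant and detoxification genes, KEAP1 holds NRF2 in check, and the SREBP factors are known to drive enzymes of lipid synthesis and the NADPH supply for it.

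The values are TPM, a transcript abundance scaled for each gene by its length and for each library to the same total. The depth of a library is therefore unknown, and no counting interval can be given. Beyond replicate noise, 2 libraries stood apart: NRF2 KO CM/vehicle replicate 3 listed 15702 genes above 0 with 9.87% of TPM from mitochondrial genes, and NRF2 KO CM/CDDO-Me replicate 3 listed 16299 with 4.74%. The other 22 libraries listed 17817 to 18993 genes with 1.54% to 3.32%. In NRF2 KO CM/vehicle replicate 3, the median difference from replicates 1 and 2 on the log2 scale was -0.81 over the 4547 genes with the highest GC content and 0.26 over the 4547 with the lowest. All 10 macrophage markers were detected in each group, but so were fibroblast markers: the 12 of them summed to between 464 and 4885 TPM over the libraries, and none but Lum was at 0 in any library. The markers of neutrophils summed to at most 72.8 TPM, those of epithelial cells to at most 9.23, of adipocytes to at most 8.59, of dendritic cells to at most 5.18, of B cells to at most 2.65, of T cells to at most 3.27 and of erythroid cells to at most 1.09. In such bulk RNA, fewer cells of a type and less RNA per cell cannot be told apart.

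The genes lie on 8 chromosomes of GRCm39, each protein coding. G6pdx (chrX:73449857-73472819, minus strand, 13 exons) has a near-identical intronless copy, G6pd2 on chromosome 5, so a share of its reads could in principle be assigned to either. Pgd lies at chr4:149233246-149251228 on the minus strand and Taldo1 at chr7:140972053-140982886 on the plus strand. Idh1 (chr1:65196781-65225721, minus strand) and Rpe (chr1:66739945-66765663, plus strand) share a chromosome, and Me1 lies at chr9:86462646-86578104 on the minus strand. NRF2 with a small MAF protein is known to bind the antioxidant response element, whose core TGACNNNGC was searched on both strands of RefSeq promoters of 300 bases (250 before and 50 after the start). The RefSeq coordinates are of GRCm38.p6, and each of the 12 promoters of the 9 genes was found once in GRCm39, whose coordinates are given. The core was present in 12.4% of 32851 promoters and in 3 of the 12: G6pdx, Me1 and a downstream start of Pgd. The upstream start of Pgd and a downstream start of Me1 held no match. The stretches below run from 100 bases before to 20 bases after the start, 5′ to 3′ on the gene's strand, and show these 3 with the core in capitals, beside Taldo1, the most abundant of the 9 in media/vehicle, which rose with CDDO-Me in each medium, and Idh1, which fell in WT CM and KEAP1 KO CM, whose promoters held no match.
G6pdx, chrX:73472467-73472586, minus strand: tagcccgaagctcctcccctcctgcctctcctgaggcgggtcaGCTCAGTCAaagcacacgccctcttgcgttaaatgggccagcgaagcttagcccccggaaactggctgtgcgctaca
Me1, chr9:86577948-86578067, minus strand: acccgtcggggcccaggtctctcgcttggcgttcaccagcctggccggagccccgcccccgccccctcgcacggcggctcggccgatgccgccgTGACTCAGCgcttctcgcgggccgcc
Pgd downstream start, chr4:149250520-149250639, minus strand: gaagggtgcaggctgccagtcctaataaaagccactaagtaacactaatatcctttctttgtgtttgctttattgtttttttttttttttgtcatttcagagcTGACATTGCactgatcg
Taldo1, chr7:140971973-140972092, plus strand: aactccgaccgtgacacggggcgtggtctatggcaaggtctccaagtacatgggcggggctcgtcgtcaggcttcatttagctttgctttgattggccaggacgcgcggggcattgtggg
Idh1 upstream start, chr1:65225619-65225738, minus strand: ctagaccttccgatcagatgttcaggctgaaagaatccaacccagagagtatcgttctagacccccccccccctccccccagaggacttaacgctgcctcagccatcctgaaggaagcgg
The G6pdx match ran from 57 to 49 bases before the start on the opposite strand, the Me1 match from 6 bases before to base 3 after it, and the Pgd match from base 4 to base 12 after it. The Me1 match also contains TGACTCA, the site known for AP-1. A match of letters is not a bound site, and these windows hold only the bases next to the start.

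Per length, the non-oxidative branch, and Taldo1 within it, gave the most RNA. In media/vehicle, the 9 genes summed to 1757 TPM ± 79.7 (SD, n = 3), of which the oxidative branch made up 38.9%, the non-oxidative branch 48.7% and Me1 with Idh1 12.4%. Taldo1 was highest at 522 TPM ± 29.5, followed by Pgd at 354 ± 11.4, Tkt at 291 ± 15.8, Idh1 at 200.1 ± 32.9, G6pdx at 188 ± 3.62 and Pgls at 141 ± 8.49, and Rpe, Me1 and Rpia lay far below at 32.4 ± 1.52, 17.7 ± 2.87 and 11.9 ± 0.897. The sum was 4267 TPM ± 332 in media/CDDO-Me and 3111 ± 96.3 in WT CM/CDDO-Me, where Me1 with Idh1 made up 6.02% and 3.19% of it. That share was 3.16% in KEAP1 KO CM/CDDO-Me, against 17.5% in KEAP1 KO CM/vehicle.

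**Figure D1:**
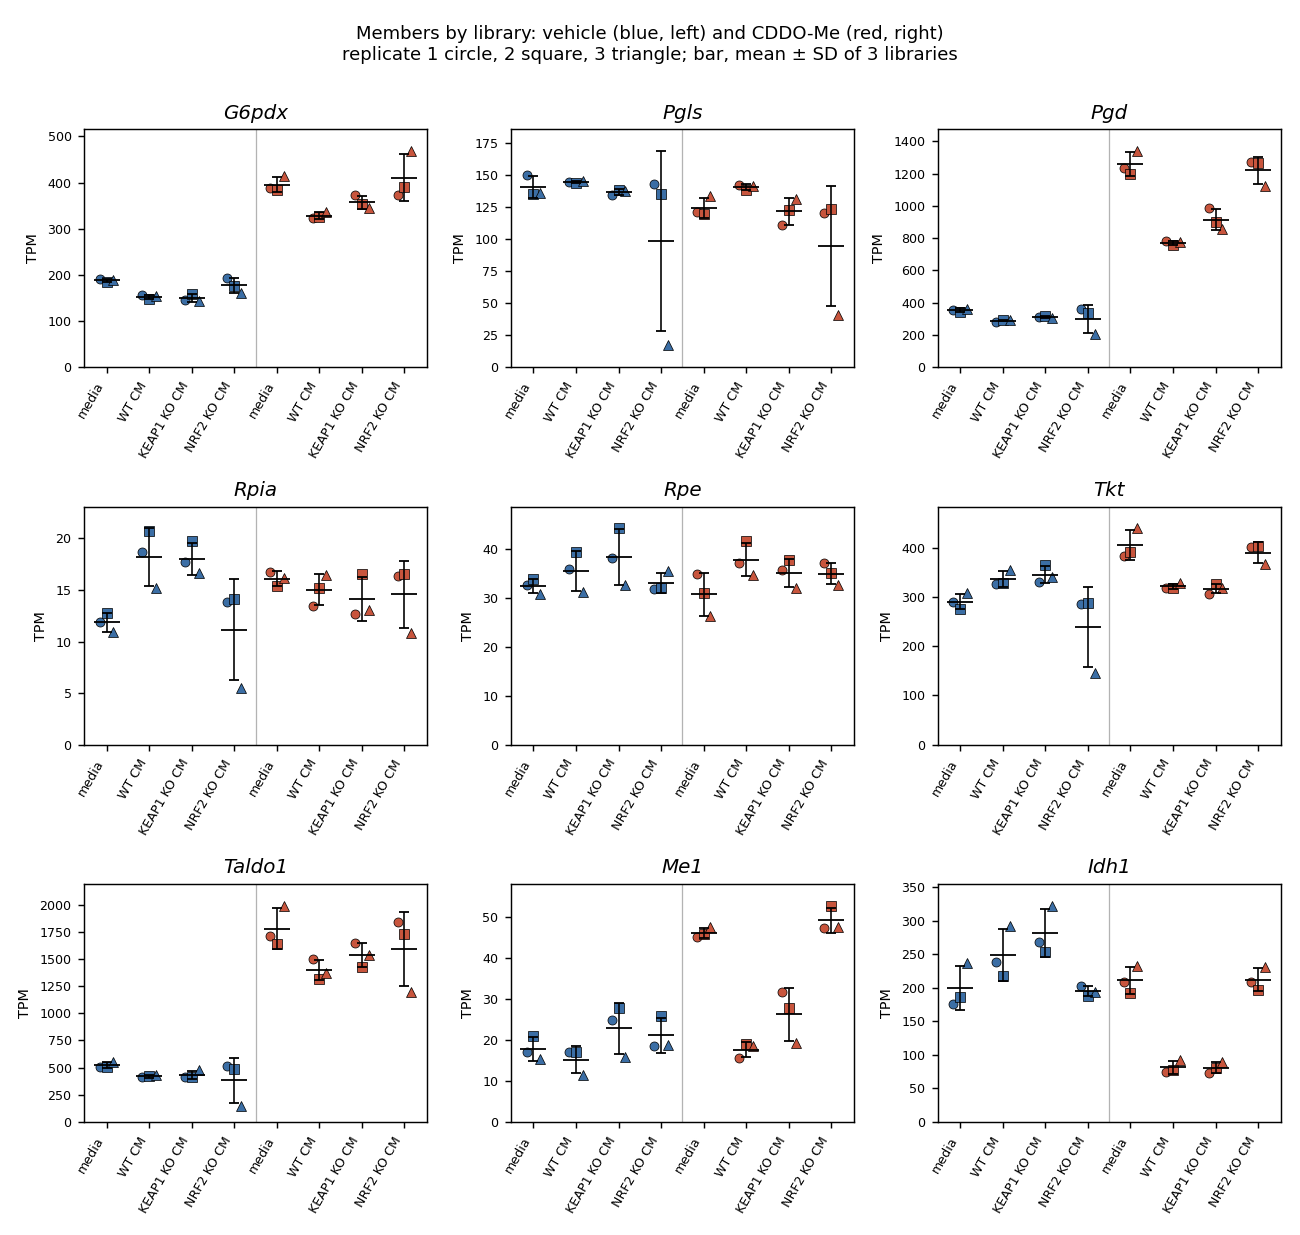
TPM of the 9 genes in each of the 24 libraries, 1 panel a gene with its own scale from 0. Blue points are vehicle and red points CDDO-Me, the symbol gives the replicate, and bars are the mean ± SD of 3 libraries. G6pdx, Pgd and Taldo1 are higher in every CDDO-Me library than in every vehicle library, Me1 in media and NRF2 KO CM, and Idh1 drops to 73.0 to 92.3 TPM in CDDO-Me with WT or KEAP1 KO CM.

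CDDO-Me was compared with vehicle within each medium to ask how RNA of the 9 genes responds to the drug with and without cancer cell products. G6pdx, Pgd and Taldo1 rose in all 4 media, by 2.12 to 4.78-fold on the scale of the fit (limma on log2 of scaled TPM + 1). Me1 rose in media and in NRF2 KO CM, and Idh1 fell in WT CM and KEAP1 KO CM. In media, 4 of the 9 genes were higher (3.22% of all genes tested) and none was lower (2.8% of all). At an unadjusted p under 0.05 the count was 5, each of them higher, beside 2187 of the 13661 genes in either direction. In WT CM, 3 were higher (14.4% of all) and 1 lower (13.4%). In KEAP1 KO CM, 3 were higher (14.4%) and 1 lower (14.3%), and in NRF2 KO CM 5 were higher (4.87%) and none lower (4.74%), with 6 at an unadjusted p under 0.05, each of them higher, beside 2866 of all genes in either direction. The median difference of the 9 genes was 0.50 in media, 0.22 in WT CM, 0.05 in KEAP1 KO CM and 0.80 in NRF2 KO CM, and that of all genes was between -0.02 and 0.02.

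In the oxidative branch, G6pdx encodes glucose 6-phosphate dehydrogenase, the committed and rate-limiting step. It read 191, 184 and 190.0 TPM in media/vehicle against 389, 384 and 414 in media/CDDO-Me, and 156, 147 and 154 in WT CM/vehicle against 323, 325 and 337 in WT CM/CDDO-Me. The KEAP1 KO CM libraries read 146, 159 and 144 with vehicle and 373, 353 and 346 with CDDO-Me, and in NRF2 KO CM 194, 176 and 162 against 373, 390.1 and 468. Every CDDO-Me library of every medium lay above every vehicle library. The differences on the log2 scale were 1.08 ± 0.11 (SE) in media (adjusted p = 1.4e-06), 1.23 ± 0.11 in WT CM (adjusted p = 2.2e-08), 1.42 ± 0.11 in KEAP1 KO CM (adjusted p = 2.6e-09) and 1.24 ± 0.11 in NRF2 KO CM (adjusted p = 1.9e-07). Pgd, 6-phosphogluconate dehydrogenase, makes the second NADPH of the branch and moved further. It read 357, 341 and 363 TPM in media/vehicle and 1236, 1196 and 1341 in media/CDDO-Me, and 283, 292 and 294 in WT CM/vehicle and 782, 760 and 775 in WT CM/CDDO-Me. With KEAP1 KO CM it read 314, 318 and 305 against 987, 902 and 859, and in NRF2 KO CM 361, 336 and 203 against 1274, 1264 and 1124, where the lowest library of each triplet was replicate 3. Its levels did not overlap between treatments in any medium, and the differences were 1.84 ± 0.13 in media, 1.54 ± 0.13 in WT CM, 1.72 ± 0.13 in KEAP1 KO CM and 2.10 ± 0.13 in NRF2 KO CM (adjusted p from 3.4e-09 to 3.1e-08). Without the 2 libraries that stood apart, the difference in NRF2 KO CM was 1.89 ± 0.09.

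Pgls, the lactonase that acts between those dehydrogenases, did not pass in any medium, with differences from -0.15 in media to 0.30 in NRF2 KO CM. It lay between 111 and 150 TPM in the 22 libraries, but read 17.6 in NRF2 KO CM/vehicle replicate 3 and 40.8 in NRF2 KO CM/CDDO-Me replicate 3, which were 12.6% and 33.4% of the mean of their other replicates. Its transcript has the highest GC content of the 9, 65.8%. Those libraries set its standard error of 0.49, which fell to between 0.08 and 0.10 without them. Its differences between CDDO-Me and vehicle were then between -0.16 and 0.09 and none passed. In TPM before scaling, it was lower with CDDO-Me without overlap in media (119 to 134 against 136 to 150) and in KEAP1 KO CM (111 to 131 against 134 to 138). After scaling between libraries, the treatments overlapped in both media. The share of all genes without overlap was not counted.

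In the non-oxidative branch, Taldo1, transaldolase, had the highest mean of the 9 genes in all 8 groups. It read 507, 503 and 556 TPM in media/vehicle against 1712, 1636 and 1991 in media/CDDO-Me, and 410.4, 419 and 437 in WT CM/vehicle against 1497, 1316 and 1376 in WT CM/CDDO-Me. In KEAP1 KO CM it read 417, 411 and 476 against 1647, 1425 and 1536, and in NRF2 KO CM 518, 487 and 147 against 1839, 1728 and 1200.
The treatments did not overlap in any medium, and replicate 3 was the lowest in both NRF2 KO CM groups. The differences were 1.78 ± 0.28 in media (adjusted p = 0.00037), 1.85 ± 0.28 in WT CM (adjusted p = 3.4e-05), 1.99 ± 0.28 in KEAP1 KO CM (adjusted p = 1.4e-05) and 2.26 ± 0.28 in NRF2 KO CM (adjusted p = 1.9e-05). The NRF2 KO CM difference was 1.86 ± 0.13 without replicate 3 of both groups (adjusted p = 1.4e-07), and it did not pass when those 2 groups were fitted alone with all 6 libraries (2.25, adjusted p = 0.10). Tkt, transketolase, shares with Taldo1 the carbon rearrangements of the branch but changed less. It read 289, 276 and 307 TPM in media/vehicle against 384, 392 and 439 in media/CDDO-Me, and 285, 288 and 145 in NRF2 KO CM/vehicle against 401, 403 and 366 in NRF2 KO CM/CDDO-Me. In both media every CDDO-Me library lay above every vehicle library. It rose in NRF2 KO CM by 0.80 ± 0.15 (adjusted p = 0.0017), which was 0.52 ± 0.09 in the 22 libraries (adjusted p = 0.0011) and did not pass with the 2 groups fitted alone (0.79, adjusted p = 0.30). The difference in media, 0.50 ± 0.15, did not pass (adjusted p = 0.068), but passed in the 22 libraries (0.50 ± 0.08, adjusted p = 0.00018). In WT CM and KEAP1 KO CM its differences were 0.07, with a 95% interval from -0.26 to 0.39, and 0.05, from -0.28 to 0.37.

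Rpia and Rpe, the isomerase and the epimerase of ribulose 5-phosphate, were low throughout and did not pass for CDDO-Me in any medium. Rpia read 11.9, 12.7 and 10.9 TPM in media/vehicle and 16.8, 15.3 and 16.2 in media/CDDO-Me, which did not overlap. That difference was 0.43 ± 0.21 (adjusted p = 0.32) and passed in the 22 libraries at 0.43 ± 0.10 (adjusted p = 0.0068). With Tkt and Rpia, 6 of the 9 genes were then higher in media (7.08% of all genes tested in the 22 libraries), and 5 were higher in NRF2 KO CM (4.67%). In KEAP1 KO CM, Rpia read 17.7, 19.7 and 16.6 TPM with vehicle and 12.7, 16.5 and 13.1 with CDDO-Me, lower without overlap before scaling. After scaling these groups overlapped. Rpe ranged only from 26.2 to 44.2 TPM over the 24 libraries, and its differences lay between -0.07 and 0.22.

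Outside the pathway, Me1 encodes cytosolic malic enzyme, which makes NADPH from malate, often alongside fatty acid synthesis. It read 17.1, 20.9 and 15.2 TPM in media/vehicle against 45.2, 45.7 and 47.5 in media/CDDO-Me, and 18.6, 25.9 and 18.8 in NRF2 KO CM/vehicle against 47.3, 52.7 and 47.4 in NRF2 KO CM/CDDO-Me. It rose by 1.36 ± 0.19 in media (adjusted p = 8.2e-05) and by 1.23 ± 0.19 in NRF2 KO CM (adjusted p = 0.00017). In WT CM it read 17.0, 17.1 and 11.4 with vehicle and 15.5, 19.0 and 18.4 with CDDO-Me, and in KEAP1 KO CM 24.7, 27.9 and 15.7 against 31.8, 27.7 and 19.1. Both pairs of groups overlapped, and the differences of 0.35 ± 0.19 and 0.37 ± 0.19 did not pass (adjusted p = 0.19 and 0.16). Idh1 encodes the cytosolic and peroxisomal isocitrate dehydrogenase that uses NADP+, and it alone moved the other way. It read 239, 217 and 292 TPM in WT CM/vehicle and 74.9, 77.4 and 92.3 in WT CM/CDDO-Me, and 269, 254 and 323 in KEAP1 KO CM/vehicle and 73.0, 80.3 and 90.0 in KEAP1 KO CM/CDDO-Me. The treated libraries all lay far below the others, and replicate 3 was the highest of each triplet. Idh1 fell by 1.47 on the log2 scale in WT CM (SE 0.16, adjusted p = 7.7e-07) and by 1.61 in KEAP1 KO CM (SE 0.16, adjusted p = 2.2e-07). In media it read 176, 186 and 238 with vehicle and 208, 192 and 232 with CDDO-Me, and in NRF2 KO CM 203, 188 and 194 against 209, 196 and 230.4. These groups overlapped, and the differences were 0.10, with a 95% interval from -0.24 to 0.45, and 0.15, from -0.19 to 0.49.

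Sums of other cell types' markers also differed between treatments in some media. The 12 fibroblast markers summed to 1187 to 2344 TPM in WT CM/vehicle and 505 to 1278 in WT CM/CDDO-Me, to 1649 to 3056 and 464 to 1690 in KEAP1 KO CM, and to 1921 to 3227 and 2033 to 4885 in media. In NRF2 KO CM they summed to 1591 to 4709 and 1070 to 3574. The treatments overlapped in each medium. As deviations from the group means over the 22 libraries, most of the 9 genes varied with that sum: Idh1 (r = -0.88), Pgls (-0.82), Tkt (-0.75), Taldo1 (-0.72), G6pdx (-0.68) and Pgd (-0.57) ran against it, Me1 (0.61) and Rpe (0.59) with it, and Rpia was at 0.11. Libraries with the same replicate number shared part of their deviations across groups, so these 22 are not independent and the r values carry no test. No such r was computed for genes other than the 9, so these values are not shown to be particular to them. With the group means left in, Idh1 and the sum correlated at 0.47 over the 22 libraries, and both had their lowest group means in the CDDO-Me groups of WT CM and KEAP1 KO CM. The 7 neutrophil markers summed to 15.4 to 24.4 TPM in KEAP1 KO CM/vehicle and 64.7 to 72.8 in KEAP1 KO CM/CDDO-Me. Their mean sum also rose from 21.4 to 37.9 in media, 19.1 to 44.2 in WT CM and 19.3 to 49.6 in NRF2 KO CM. The epithelial markers summed to 8.76 to 9.23 in KEAP1 KO CM/vehicle and 0.989 to 1.97 in KEAP1 KO CM/CDDO-Me. The 4 adipocyte markers, of which at most 1 had a mean above 1 TPM, summed to 4.53 to 8.59 in WT CM/vehicle and 0.0623 to 0.592 in WT CM/CDDO-Me. The part of these cell types in the values of the 9 genes was not tested.

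**Figure D2:**
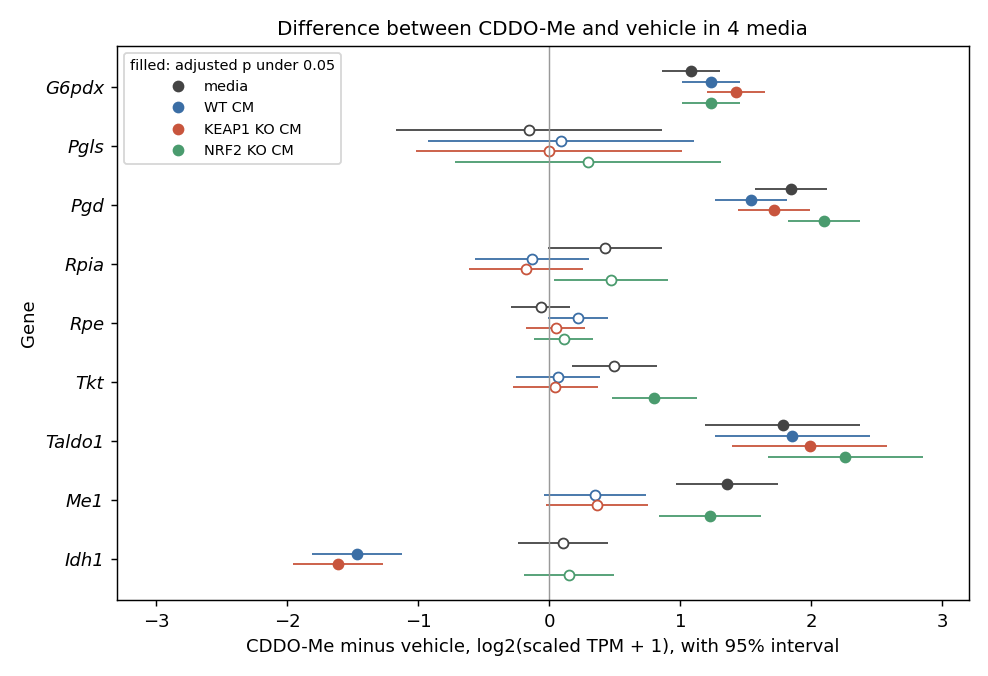
Difference between CDDO-Me and vehicle for the 9 genes in each medium, in log2 units of scaled TPM + 1 with 95% intervals from the fit to 24 libraries. Filled points have an adjusted p under 0.05. G6pdx, Pgd and Taldo1 lie between 1.08 and 2.26 in all 4 media, Me1 passes in media and NRF2 KO CM, and Idh1 lies at -1.47 and -1.61 in WT and KEAP1 KO CM and near 0 in the others.

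Whether the response to CDDO-Me itself differed between media was tested as an interaction. Idh1 and Me1 responded differently in WT CM than in media, by -1.57 ± 0.23 (adjusted p = 5.9e-05) and -1.01 ± 0.26 (adjusted p = 0.012), and they were 2 of the 9 genes with a more negative response (6.73% of all genes). The response in KEAP1 KO CM differed from that in media for both genes too, by -1.72 ± 0.23 for Idh1 (adjusted p = 2.2e-05) and -0.99 ± 0.26 for Me1 (adjusted p = 0.013), again 2 of 9 (6.65%). Against NRF2 KO CM, the response in WT CM was more negative for 3 of 9 (5.81%): Idh1 by -1.62 ± 0.23 (adjusted p = 4.3e-05), Me1 by -0.88 ± 0.26 (adjusted p = 0.030) and Tkt by -0.74 ± 0.22 (adjusted p = 0.029). The last 2 were close to the threshold, and in the 22 libraries Me1 did not pass (-0.83 ± 0.30, adjusted p = 0.060) while Tkt did (-0.45 ± 0.12, adjusted p = 0.011). These comparisons share libraries, since the media and WT CM groups enter more than 1 of them. For G6pdx and Taldo1 the WT CM response differed from that in media by 0.15, with a 95% interval from -0.16 to 0.46, and by 0.07, from -0.77 to 0.91.

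In the limma fit to 24 libraries, the responses in NRF2 KO CM and in media differed for none of the 9 genes and for 0% of all genes, with none of the 9 and 359 of all genes at an unadjusted p under 0.05 (338 of all genes in the fit to 22 libraries). Those in KEAP1 KO CM and WT CM also differed for none of the 9 and for 0% of all in the 24 libraries, with none of the 9 and 224 of all genes at an unadjusted p under 0.05 (607 of all genes in the 22 libraries). In the 24 libraries the interval for Idh1 between KEAP1 KO CM and WT CM was -0.63 to 0.34 and that for G6pdx -0.12 to 0.50.

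In the 22 libraries, where the spread was smaller, more of the pathway differed in its response. Compared with media, 5 of the 9 genes had a more negative response in WT CM (13.3% of all): Idh1, Me1, Rpia (-0.56 ± 0.14, adjusted p = 0.0062), Tkt (-0.43 ± 0.11, adjusted p = 0.0054) and Pgd (-0.30 ± 0.10, adjusted p = 0.038). In KEAP1 KO CM 4 did (14.4%), namely Idh1, Me1, Rpia (-0.61 ± 0.14, adjusted p = 0.0034) and Tkt (-0.45 ± 0.11, adjusted p = 0.0039), and G6pdx was the 1 gene with a more positive response (0.34 ± 0.10, adjusted p = 0.013, 14.7% of all).

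The conditioned media were then compared with media under vehicle, to ask what cancer cell products alone do to these genes. In the fit to 24 libraries, which had no term for the replicate number, none of the 9 passed with any conditioned medium. Of all genes, 7.23% passed with WT CM, 8.06% with KEAP1 KO CM and 0.00732% with NRF2 KO CM. At an unadjusted p under 0.05 were 3, 4 and 3 of the 9, beside 2443, 2593 and 1650 of the 13661 genes. For NRF2 KO CM none of the 9 did so in the 22 libraries, beside 762 of 13562 genes. These 3 comparisons share the media/vehicle libraries. In TPM, some of the 9 lay apart from media: G6pdx read 147 to 156 TPM in WT CM/vehicle and 144 to 159 in KEAP1 KO CM/vehicle against 184 to 191 in media/vehicle, and Rpia 15.2 to 20.7 and 16.6 to 19.7 against 10.9 to 12.7. Tkt read 325, 329 and 355 in WT CM/vehicle and 331, 364 and 341 in KEAP1 KO CM/vehicle, all above the 276 to 307 of media/vehicle. Pgd read 283 to 294 and 305 to 318 against 341 to 363, and Taldo1 410.4 to 437 and 411 to 476 against 503 to 556. None of these ranges overlapped that of media/vehicle, nor did that of Idh1 in KEAP1 KO CM/vehicle. The share of all genes without such overlap was not counted, so this is no result particular to the 9.

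Without the 2 libraries that stood apart, the same differences passed for 4 genes in each medium. In WT CM, Rpia was higher by 0.63 ± 0.10 (adjusted p = 0.00021) and Tkt by 0.28 ± 0.08 (adjusted p = 0.014), 2 of 9 (11.3% of all), and G6pdx was lower at -0.24 ± 0.07 (adjusted p = 0.022) and Pgd at -0.22 ± 0.07 (adjusted p = 0.049), 2 of 9 (7.48%). In KEAP1 KO CM, Rpia at 0.56 ± 0.10 (adjusted p = 0.00058), Tkt at 0.25 ± 0.08 (adjusted p = 0.025) and Idh1 at 0.50 ± 0.16 (adjusted p = 0.030) were higher, 3 of 9 (12.6%), and G6pdx was lower at -0.33 ± 0.07 (adjusted p = 0.0019), 1 of 9 (8.4%). The differences themselves were the same to 2 decimals as in the 24 libraries, where their standard errors were 0.21 for Rpia, 0.15 for Tkt and 0.11 for G6pdx. In the 24 libraries with the replicate number as a block, Rpia (0.63, adjusted p = 0.036) and Idh1 (0.39, adjusted p = 0.0014) passed for WT CM. In WT CM in the 22 libraries, the 2 dehydrogenases of the oxidative branch were thus below media, and Rpia and Tkt of the other branch above it. Taldo1, also of that other branch, did not follow Rpia and Tkt: its difference was -0.23 ± 0.11 and did not pass (adjusted p = 0.16).

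**Figure D3:**
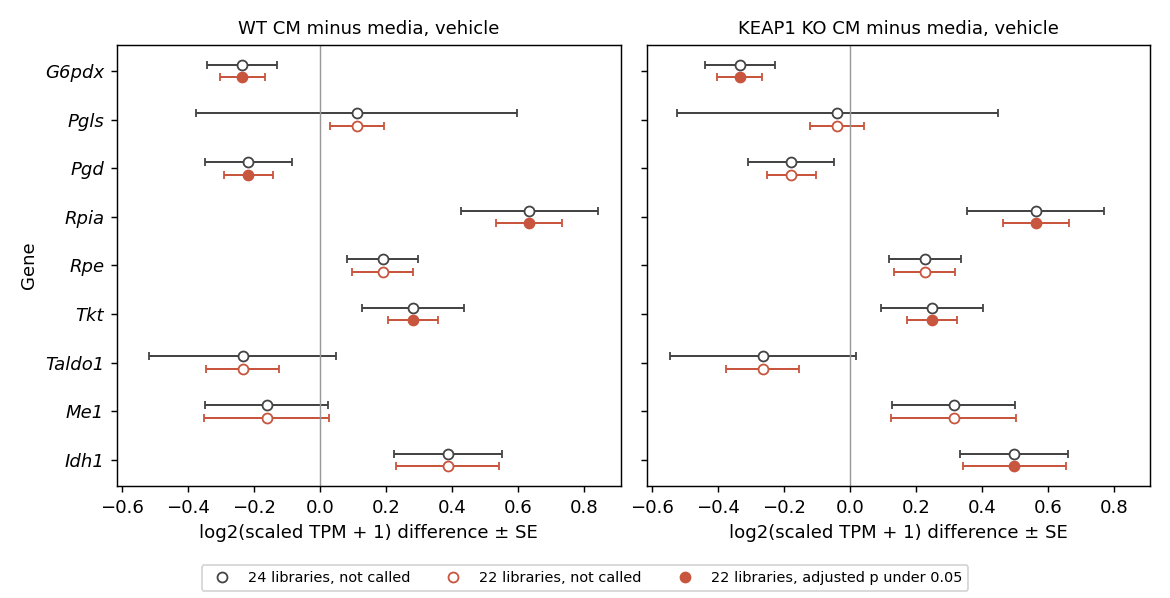
Difference between conditioned medium and media under vehicle, in log2 units of scaled TPM + 1 ± SE, for WT CM (left) and KEAP1 KO CM (right). Grey points are the fit to all 24 libraries and red points the fit without replicate 3 of both NRF2 KO CM groups, filled where the adjusted p is under 0.05. The points of both fits coincide and the bars shrink, and 4 genes pass in each panel only in the smaller set.

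KEAP1 KO CM and WT CM were not told apart for any of the 9 genes under vehicle (0% of all genes, 1 of the 9 and 350 of all genes at an unadjusted p under 0.05). The 1 gene was Me1, higher with KEAP1 KO CM by 0.48 ± 0.19 with a 95% interval from 0.09 to 0.87. WT CM was compared with NRF2 KO CM under vehicle, where 2 of the 9 were higher (6.84% of all): Rpia by 0.81 ± 0.21 (adjusted p = 0.016) and Tkt by 0.63 ± 0.15 (adjusted p = 0.013). Both comparisons rest in part on NRF2 KO CM/vehicle replicate 3, where Rpia read 5.46 TPM and Tkt 145, which were 39.1% and 50.5% of the mean of the other replicates. Without it and its CDDO-Me counterpart the same 2 of 9 passed (9.7% of all), Rpia at 0.45 ± 0.11 (adjusted p = 0.010) and Tkt at 0.35 ± 0.08 (adjusted p = 0.0097). With the 2 groups fitted alone and all 6 libraries, neither did (adjusted p = 0.36 for Rpia and 0.37 for Tkt).

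Under CDDO-Me, the media separated the NADPH genes outside the pathway most. Against media/CDDO-Me, 1 gene was higher in WT CM/CDDO-Me (14% of all) and 3 were lower (12.8%). Me1 was lower at -1.17 ± 0.19 (adjusted p = 7.5e-05), Idh1 at -1.18 ± 0.16 (adjusted p = 1.6e-05) and Pgd at -0.52 ± 0.13 (adjusted p = 0.0050), and Rpe was higher at 0.47 ± 0.11 (adjusted p = 0.0024). In KEAP1 KO CM/CDDO-Me, 1 gene was higher (12.1%), Rpe at 0.34 ± 0.11 (adjusted p = 0.027), and 2 were lower (10.5%), Idh1 at -1.22 ± 0.16 (adjusted p = 1.2e-05) and Me1 at -0.67 ± 0.19 (adjusted p = 0.012). That Me1 call was lost without KEAP1 KO CM/CDDO-Me replicate 3 (-0.50, adjusted p = 0.086). Rpe read 34.9, 31.0 and 26.2 TPM in media/CDDO-Me, 37.1, 41.5 and 34.7 in WT CM/CDDO-Me and 35.6, 37.7 and 32.0 in KEAP1 KO CM/CDDO-Me, and its ranges overlapped in both comparisons. Its calls were lost without scaling between libraries (WT CM, adjusted p = 0.075, and KEAP1 KO CM, adjusted p = 0.28). NRF2 KO CM/CDDO-Me and media/CDDO-Me differed for none of the 9 (0.19% of all genes), with none at an unadjusted p under 0.05. KEAP1 KO CM/CDDO-Me and WT CM/CDDO-Me also differed for none (0.0439%), with 1 at an unadjusted p under 0.05, Me1, at 19.1 to 31.8 TPM against 15.5 to 19.0 (0.49 ± 0.19, 95% interval from 0.10 to 0.88).

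The order of the groups therefore differed between genes. For Pgd, media/CDDO-Me (1258 TPM ± 74.8) and NRF2 KO CM/CDDO-Me (1221 ± 83.8) overlapped at the top, then came KEAP1 KO CM/CDDO-Me (916 ± 65.1) and WT CM/CDDO-Me (772 ± 11.2) without overlap, and the vehicle groups lay at 290 to 354. G6pdx had the same order among the treated groups but for its first place, from 410.4 ± 51.1 in NRF2 KO CM/CDDO-Me to 328 ± 7.43 in WT CM/CDDO-Me. For Me1, NRF2 KO CM/CDDO-Me (49.1 ± 3.08) and media/CDDO-Me (46.1 ± 1.23) overlapped each other and none of the rest, which ran from 26.2 ± 6.44 in KEAP1 KO CM/CDDO-Me to 15.1 ± 3.25 in WT CM/vehicle with each neighbour overlapping the next. For Idh1, 6 groups from 282 ± 36.0 in KEAP1 KO CM/vehicle to 195 ± 7.74 in NRF2 KO CM/vehicle overlapped their neighbours, and the CDDO-Me groups of WT CM (81.6 ± 9.40) and KEAP1 KO CM (81.1 ± 8.54) stood below them.

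Genes around the pathway give the setting. With CDDO-Me, 3.22% of all genes tested rose and 2.8% fell in media, and 14.4% rose and 13.4% fell in WT CM. The counts of these short lists are to be read beside those shares. Of 12 other pentose phosphate genes tested, 1 rose with CDDO-Me in media, and in WT CM 3 rose and 2 fell. H6pd, the glucose 6-phosphate dehydrogenase of the endoplasmic reticulum, rose by 0.95 ± 0.25 in media (adjusted p = 0.023) and 0.93 ± 0.25 in WT CM (adjusted p = 0.0066). Prps1, which turns ribose 5-phosphate into the precursor of nucleotides, was higher in WT CM than in media under vehicle by 2.22 ± 0.19 (adjusted p = 1.3e-07) and with CDDO-Me in WT CM it fell by 2.71 on the log2 scale (SE 0.19, adjusted p = 1.1e-09). Of 12 other genes that make or handle NADP(H), none passed in media and 1 rose and 3 fell in WT CM, among them Nadk2, the mitochondrial NAD kinase (1.15 ± 0.15, adjusted p = 4.1e-06), and Idh2, the mitochondrial counterpart of Idh1 (-0.88 ± 0.17, adjusted p = 0.00041).

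Genes that spend NADPH split by use. Of 12 detoxification and redox enzymes that use it, 8 rose and none fell in media (median 1.62) and 6 rose and 2 fell in WT CM (median 0.52). Nqo1, the quinone reductase, rose by 4.86 in media (adjusted p = 2.2e-08) and by 3.69 in WT CM (adjusted p = 3.0e-08), and Gsr, glutathione reductase, by 1.75 (adjusted p = 0.00015) and 1.29 (adjusted p = 0.00052). Of 14 other known NRF2 targets, 12 rose in media (median 1.84) and 10 in WT CM (median 1.42), and none fell in either. Of 14 lipid synthesis enzymes that use NADPH or feed it, 4 fell in media (median -0.27) and 13 in WT CM (median -1.27), and none rose. In WT CM, Fasn, fatty acid synthase, fell by 1.86 (SE 0.25, adjusted p = 6.8e-06) and Sqle, squalene epoxidase, by 2.72 (SE 0.13, adjusted p = 6.3e-12). The response of 12 of these 14 to CDDO-Me was more negative in WT CM than in media, and 9 of them were higher in WT CM than in media under vehicle (median 0.67), where of the NRF2 targets none passed. In KEAP1 KO CM against media under vehicle, 12 of the 14 lipid enzymes were higher (median 0.96) and 4 of the 14 NRF2 targets were lower (median -0.28). Of the 6 subunits of the phagocyte NADPH oxidase, 3 rose and 1 fell in WT CM with CDDO-Me, with Cybb, its catalytic subunit, at 1.74 (adjusted p = 6.5e-07). Median differences of all genes tested lay between -0.02 and 0.01 in these comparisons. Of all genes, 3.22% rose and 2.8% fell with CDDO-Me in media, and 14.4% rose and 13.4% fell in WT CM. The response was more negative in WT CM than in media for 6.73%. Under vehicle, 4.38% were higher in WT CM than in media, and in KEAP1 KO CM 4.87% were higher and 3.19% lower.

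Among 10 tested regulators, Nfe2l2, which encodes NRF2, did not pass for CDDO-Me in any medium (-0.64 in media, -0.64 in WT CM, -0.13 in KEAP1 KO CM and -0.62 in NRF2 KO CM). Keap1 rose in WT CM by 0.83 ± 0.21 (adjusted p = 0.0056) and in KEAP1 KO CM by 0.80 ± 0.21 (adjusted p = 0.0071). Srebf1, which encodes the SREBP-1 factors of fatty acid synthesis, fell in WT CM by 0.65 (SE 0.13, adjusted p = 0.00048) and in KEAP1 KO CM by 0.56 (SE 0.13, adjusted p = 0.0018), and in media its difference was -0.02. Mlxipl, a glucose-sensing factor, did not pass the filter on low values.

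**Figure D4:**
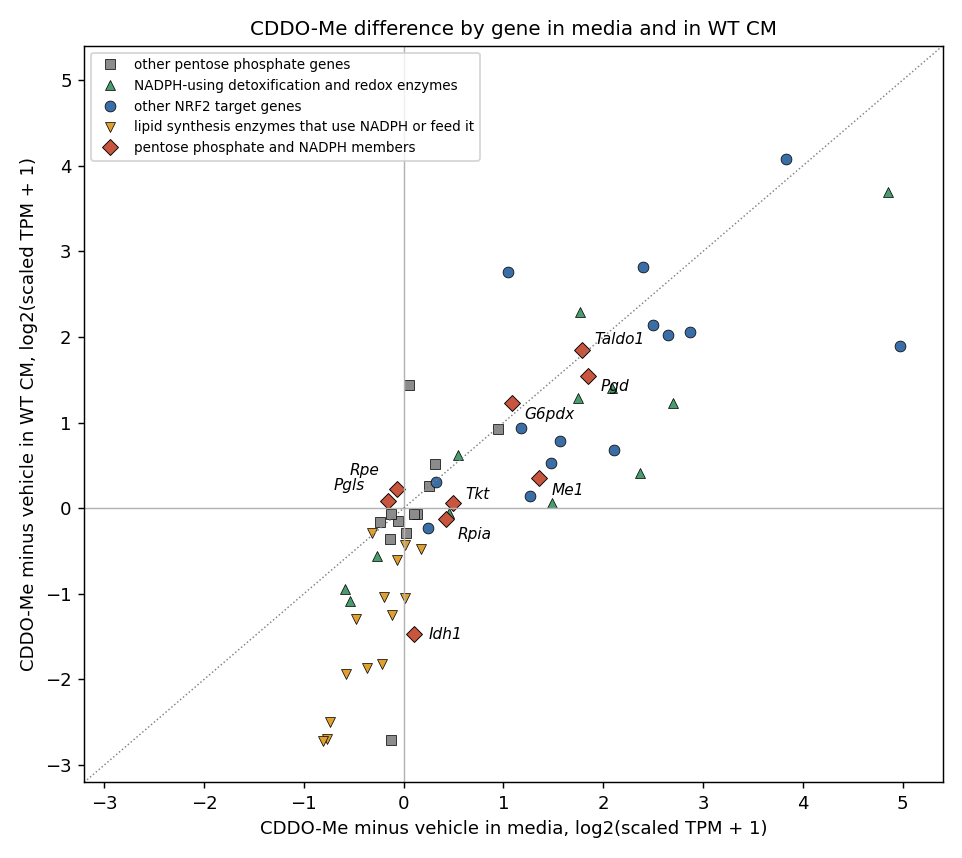
Difference between CDDO-Me and vehicle in media (horizontal) and in WT CM (vertical), in log2 units of scaled TPM + 1. Each point is a gene, red diamonds are the 9 genes and the other symbols 4 lists of related genes, and the dotted line marks equal differences. Taldo1, Pgd and G6pdx lie near the line, Me1 below it, and Idh1 at 0.10 and -1.47.

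The 9 genes fell into sets by their pattern over the libraries. On the log2 scale, G6pdx and Pgd correlated at r = 0.97, G6pdx and Taldo1 at 0.93, and Pgd and Taldo1 at 0.97 over 24 libraries, and at 0.98, 0.99 and 0.99 over 22. G6pdx and Idh1 correlated at -0.56 over 24 and -0.66 over 22. The libraries share groups and treatment, so these values describe the groups' order and carry no test. Among 10053 genes with a mean of at least 5 TPM, the 3 most alike to G6pdx were Gclm (0.99), Prdx1 and Abcc4 (0.98 each), and those most alike to Pgd were Abcc1, Srxn1 (0.99 each) and Nqo1 (0.98). For Taldo1 the leading gene changed with the libraries, from Pdlim4 (0.98) over 24 to Gclm (0.996) over 22. Me1 was most like Akr1b8 (0.92 over 24) and Numbl (0.93 over 22), and Idh1 most like Dtnbp1 (0.97 over 24) and Sh3kbp1 (0.98 over 22). The nearest genes of Tkt, Pgls, Rpia and Rpe over 24 libraries were Cdk2ap2, Atp5mc2, Samd1 and Alg3, of which only Samd1 was also nearest over 22.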

How the data were processed

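The 9 genes and the gene lists were chosen with earlier results of these data known. RNA of 24 BMDM libraries was sequenced by the authors from poly-A selected RNA (150-base read pairs) and quantified by them with Kallisto on GRCm39 transcripts. The deposited values are length-scaled TPM per gene symbol, although the table is titled as gene counts: each library sums to the same total with its 1 unnamed row (at most 0.0635% of TPM), so no counts or depths were available and no count test was run. That row was left out. Libraries were scaled by TMM factors (trims 30% and 5%), and log2(scaled TPM + 1) was fitted with limma 3.58.1 in R 4.3.3, with 1 mean per group, 16 residual degrees of freedom and a moderated variance with trend. A gene counted as called at an adjusted p (Benjamini-Hochberg over 13661 genes, two-sided) under 0.05. Fold changes are on the scale of log2(scaled TPM + 1) and understate changes of low genes. The fit was tested on simulated data. Alternatives were RLE factors or no scaling, pseudocounts 0.1, 0.5 and 5, filters of none or above 5 TPM, no trend, array weights, a replicate block, the compared groups alone, 22 libraries and each library left out in turn. The 22-library values of the correlations and most alike genes were added after seeing the data. The genes named are the 9, 4 regulators (Nfe2l2, Keap1, Srebf1 and Mlxipl) and examples of each list, the latter chosen after their values were seen. GENCODE vM39 gave positions. Deviations of same-numbered libraries from their group means correlated above 0.1 in 71 of 84 pairs of libraries (median r = 0.24). All 3 pairs did so for WT CM against media, KEAP1 KO CM against WT CM and CDDO-Me in media and in NRF2 KO CM, and for the comparisons of media under CDDO-Me, so the numbers were taken to pair those. By mean correlation, 22 of 24 libraries were most like those of their own number in other groups. The main fit had no term for this number, and calls that changed with a replicate block are given with the alternatives.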

Additional observations from a re-analysis of the deposited data

Results flagged for a closer look

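The response to CDDO-Me differed between media by a test of the interaction for 3 of the 9 genes. For Idh1 the response was -1.57 (SE 0.23) in WT CM minus media, -1.72 (SE 0.23) in KEAP1 KO CM minus media and -1.62 (SE 0.23) in WT CM minus NRF2 KO CM, with adjusted p of 5.9e-05, 2.2e-05 and 4.3e-05 from limma, and all 3 treated libraries of WT CM and of KEAP1 KO CM lay below all 3 vehicle libraries. For Me1 the same differences were -1.01, -0.99 and -0.88 (SE 0.26 each), with adjusted p of 0.012, 0.013 and 0.030. For Tkt the difference of WT CM from NRF2 KO CM was -0.74 (SE 0.22, adjusted p = 0.029). Its value in NRF2 KO CM rests in part on the vehicle library with 15702 genes listed, and without that library and the CDDO-Me library with 16299 it was -0.45. Single libraries within the groups of 3 were not tested as outlying here.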

How the results depend on the processing

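Of 3186 values of single genes under the alternatives, 3073 kept their side of the threshold, 86 passed in addition, 26 no longer passed and 1 reversed. A change of direction counted as reversed only where the value passed in the main fit or the alternative. Values that passed in neither counted as kept, whatever their direction. The calls of G6pdx, Pgd and Me1 for CDDO-Me in media and NRF2 KO CM, of G6pdx, Pgd, Taldo1 and Idh1 in WT CM and KEAP1 KO CM, and of Idh1 and Me1 in both interactions with media held in each alternative run. Under vehicle, none of the pathway and cytosolic NADPH genes passed for WT CM against media in the main fit (7.23% of all genes). In the alternatives, 6 did with array weights, 3 with the compared groups alone, 4 in 22 libraries (18.8% of all genes) and 1 without scaling. For KEAP1 KO CM against media the counts were 8, 3, 4 (21% of all genes in the 22 libraries) and 2, and 0 to 1 with 1 library left out (1, Idh1, without media/vehicle replicate 3). With the replicate block, 2 passed in each (Rpia and Idh1, and G6pdx and Idh1). That block added Idh1 for WT CM against NRF2 KO CM (0.41) and Pgd in the interaction of WT CM with NRF2 KO CM (-0.55), and changed no other call. For WT CM against NRF2 KO CM, 2 passed, against 6 with array weights, 0 with the groups alone, 1 without scaling and 1 to 3 with 1 library left out (Pgls added without NRF2 KO CM/vehicle replicate 1, Rpia lost without WT CM/vehicle replicate 2 and Tkt without replicate 3). There array weights reversed Pgd to -0.19. KEAP1 KO CM against WT CM gave 1 with array weights (Me1) under vehicle and 1 under CDDO-Me (Me1). For CDDO-Me in WT CM, array weights also called Rpia lower (-0.23) and Rpe higher (0.21). KEAP1 KO CM against media under CDDO-Me gave 5 in 22 libraries (39.3% of all genes), and CDDO-Me in NRF2 KO CM gave 3 with the groups alone. The interaction of WT CM with media gave 2, against 5 with array weights, 4 with the groups alone and 5 in 22 libraries (28.3% of all genes). That of KEAP1 KO CM with media gave 5, 5 and 5 (29.1% of all in the 22 libraries), and that of WT CM with NRF2 KO CM 5 with array weights and 1 to 4 with 1 library left out. Me1 and Tkt in that interaction were lost without any of several single libraries of WT CM or NRF2 KO CM, and in KEAP1 KO CM against media under CDDO-Me Rpe without any of 4 and Me1 without KEAP1 KO CM/CDDO-Me replicate 3. Where a count under an alternative stands without its share of all genes, it is not shown to be particular to these genes. This holds for the counts with array weights, with the compared groups alone, without scaling and with the replicate block. The causes were not tested, beyond the smaller spread when 2 libraries are left out.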
